A study of Mus musculus with 28 samples.

Results

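Resting Th1 cells taken from mice 15 days after transfer were compared with resting Th1 cells taken 5 days after transfer. The comparison used 5 of the 28 arrays of the series: the 2 day 15 and the 3 day 5 arrays whose labels give Th1 polarization, recovery after transfer and no restimulation. All 5 held RNA of CD4+ T cells of the mouse strain BwTRP1 Rag1-/-, which carry a transgenic T cell receptor for TRP1, a protein of pigment cells. The cells had been cultured for 7 days with TRP1 peptide (1 µM), irradiated C57/B6 splenocytes, IL-12 (3.33 ng/ml) and antibody to IL-4 (10 µg/ml), and were then given to B6.PL recipients that had received 5 Gy of irradiation. Recipients carried the Thy1.1 form of Thy1 and transferred cells the Thy1.2 form. Cells from spleens and inguinal lymph nodes, which the series design describes as pooled, were enriched for CD4 and sorted for Thy1.2, and each sample was divided into a part left at rest and a part restimulated for 2 h. Resting Th17 cells (4 day 15 and 3 day 5 arrays) and restimulated Th1 cells (2 and 3 arrays) of the same study are given beside the resting Th1 values where they differ. The Th17 cells had been cultured with the same peptide and splenocytes but with IL-1, IL-6, IL-21, TGFβ2 and antibodies to IL-2, IL-4 and interferon gamma, and later IL-23. Medium with IL-2 was added to both kinds of culture. All these recovered groups share the transgenic receptor, the Rag1 deletion, the peptide stimulation and the irradiated host, and the Th1 and Th17 groups differ in the polarizing culture. Nothing in the labels states that the samples of a group were separate mice. The p-values therefore weigh changes against a spread among samples that may be technical. No scan or extraction batch is given in the sources used here, and batch and day cannot be told apart.

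Th1 cells are the CD4+ helper cells that make interferon gamma under control of the transcription factor T-bet. After transfer into a host depleted of lymphocytes such cells divide, and with time most T cells stop dividing and either die or persist, with changes in survival receptors, metabolism and surface receptors that go with effector and memory states. Killer cell lectin-like receptors, best known from natural killer cells, are also carried by effector and memory T cells and bind MHC class I and related stress ligands. In adult mice the spleen, one of the organs sampled here, is also a site of red cell formation, so transcripts of erythroid cells are described first and apart from those of T cells.

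Values are log2 intensities after RMA, the authors' normalization, so a difference of 1 log2 unit is a 2-fold change. A gene was called when its limma adjusted p was under 0.05 over all 19938 genes. Array medians over all probe sets were 6.96 and 7.03 at day 15 and 6.84 to 6.89 at day 5. Correlations over all genes were 0.9961 between the day 15 arrays and 0.9975 to 0.9979 among the day 5 arrays. The number of arrays limits the precision. The labelled cell type was checked against its markers. Cd3e, a chain of the T cell receptor complex, read 13.22 and 13.17 at day 15, against 13.08, 13.17 and 13.16 at day 5. Cd4 read 13.03 and 13.17 at day 15, against 12.78, 12.84 and 12.92 at day 5, a difference of 0.26 with an adjusted p of 0.0887. Thy1, the gene of the sorted protein, read 13.07 and 13.10 at day 15, against 13.07, 13.08 and 13.11 at day 5, and the array does not tell its 2 forms apart. Of 16 pan T cell and CD4 genes, 2 were called higher and 0 lower (0 higher without day 15 replicate 2, 1 without day 5 replicate 1 or 2), and their mean was 11.73 and 11.85 at day 15, against 11.65, 11.68 and 11.74 at day 5.

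Between the days, 3201 genes (16.1%) were called, of which 1463 (7.34%) were higher and 1738 (8.72%) lower at day 15. Of these, 239 were higher (1.2%) and 206 lower (1.03%) by at least 2-fold, and the median change of all genes was 0.00. With so few arrays, the 2 days did not overlap for many genes. Day 15 lay wholly above day 5 for 4835 genes (24.3%) and wholly below for 5103 (25.6%). Without day 15 replicate 2 the counts were 717 higher and 939 lower, and without day 15 replicate 1 they were 1064 and 1127. The share of calls that were higher was 45.7%. With each array centred on its median it was 23.2% (953 higher and 3149 lower), and the median of all genes moved to -0.12. Centred on the pan T cell genes the share was 26.7% (1046 and 2866). With cyclic loess it was 53.5% (2048 and 1783), so the balance of higher and lower calls depended on the normalization.

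Erythroid transcripts were among the largest rises. Car1, carbonic anhydrase of the red cell lineage, read 12.13 and 12 at day 15, against 6.25, 6.31 and 6.04 at day 5, a rise of 5.87 log2 units or 58.3-fold (SE 0.23, adjusted p = 5.08e-14). Rhag, a glycoprotein of the red cell membrane, read 9.44 and 8.80 at day 15, against 4.73, 4.58 and 4.22 at day 5, a rise of 4.61 (SE 0.35, adjusted p = 2.46e-09). Slc4a1, the anion exchanger band 3, read 11.33 and 10.54 at day 15, against 6.86, 6.99 and 6.91 at day 5, a rise of 4.01 (SE 0.24, adjusted p = 9.88e-11). Both day 15 arrays lay far above all 3 day 5 arrays for each of these genes, and replicate 1 was the higher one of day 15. Gata1, the transcription factor of erythroid and megakaryocyte cells, read 8.89 and 8.69 at day 15, against 6.13, 6.27 and 6.03 at day 5, a rise of 2.64 (SE 0.16, adjusted p = 1.99e-10). Alas2, the first enzyme of erythroid heme synthesis, read 8.52 and 8.30 at day 15, against 6.34, 6.54 and 6.63 at day 5, a rise of 1.91 (SE 0.18, adjusted p = 8.94e-08). Car2 rose by 4.36, Kel, a blood group antigen, by 3.48, the water channel Aqp1 by 3.15 and the ankyrin gene Ank1 by 2.77.

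**Figure D1:**
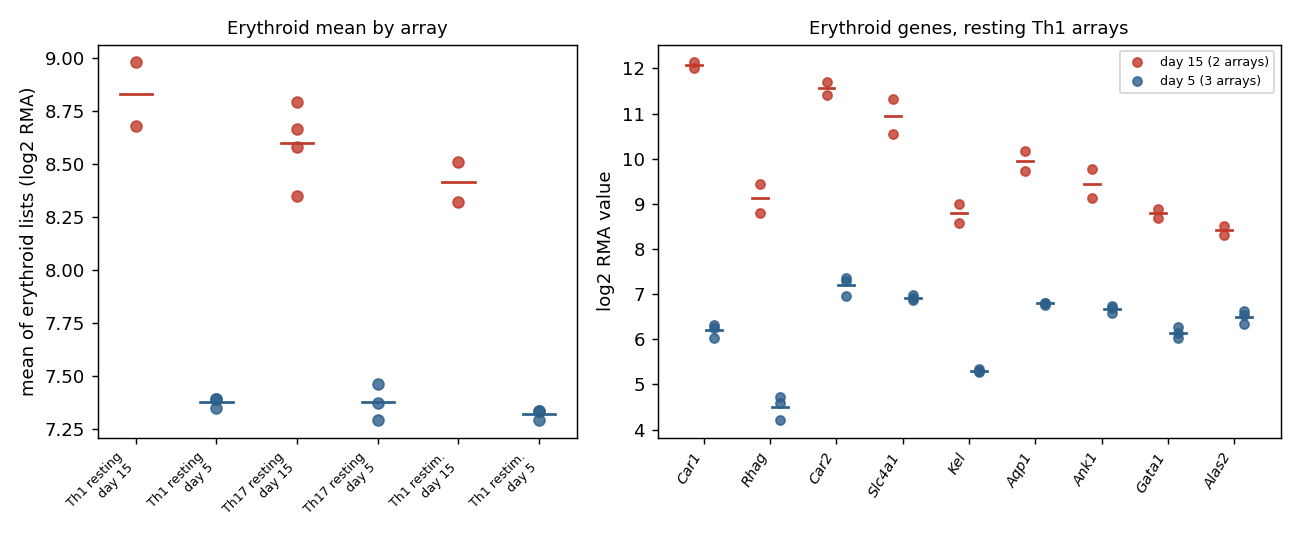
Left, the mean log2 RMA value of the erythroid globin, heme and membrane lists on each array of resting Th1, resting Th17 and restimulated Th1 cells at day 15 (red) and day 5 (blue), with a bar at each group mean. Right, 9 erythroid genes on the resting Th1 arrays, with the mean of each day as a bar. Every day 15 array lies above every day 5 array of its kind, and the resting Th1 arrays read 8.98 and 8.68 at day 15 against 7.35 to 7.39 at day 5.

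Of 55 measured genes in the 4 erythroid lists, 38 were called higher and 0 lower, with a median change of 1.02. The share called higher over all genes was 7.34%. By role, 13 of 18 membrane and cytoskeleton genes (median 2.12), 17 of 23 enzymes and regulators (median 1.76) and 9 of 13 heme and iron genes (median 0.64) rose, 1 gene being in 2 lists. The 2 globin genes measured here did not pass the test, with changes of 0.03 and 0.04, and the other globin genes were not analysed here. Resting Th17 cells had 40 of the 55 genes higher at day 15, where 4.37% of all genes were called higher, and 0 of the 55 differed between the types in the test of the difference, which called 1.14% of all genes. The mean of the globin, heme and membrane lists was 8.98 and 8.68 on the resting Th1 arrays of day 15, against 7.39, 7.39 and 7.35 at day 5, and 8.51 and 8.32 on the restimulated arrays of day 15. In bulk RNA, more erythroid cells and more RNA per cell cannot be told apart. Whether these transcripts came from the host was not tested. The array taken in culture before transfer, with no replicate, read 10.42 for Car1, 9.22 for Gata1 and 6.96 for Slc4a1.

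One promoter of this group is shown because its gene had the largest change among called erythroid genes whose promoter window holds a GATA word. The window runs from 250 bases before to 50 bases after the start in RefSeq (GRCm38.p6), on the plus strand of chr17:40810899-40811198, and capitals mark the GATA word, read as AGATAA or TGATAA on either strand. It begins at position -31 relative to the start.
Rhag: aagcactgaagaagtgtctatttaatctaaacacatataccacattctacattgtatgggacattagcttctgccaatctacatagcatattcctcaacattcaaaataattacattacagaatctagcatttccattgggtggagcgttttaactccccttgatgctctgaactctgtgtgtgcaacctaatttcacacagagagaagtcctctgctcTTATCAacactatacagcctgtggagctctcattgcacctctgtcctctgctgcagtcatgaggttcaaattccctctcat
Of 41 erythroid genes with a window in the table, 16 (39.0%) held such a word, against 5122 (19.0%) of 27025 windows of all genes. A match describes the letters in this window and is not a bound site.

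To set apart further genes that moved with erythroid RNA, each gene was correlated with the erythroid mean over the 12 day 15 arrays, after taking away each group's mean. The resting and restimulated arrays are parts of divided samples, so the correlation is a description. At r of 0.8 or more, 464 genes tracked the erythroid mean, of which 70 were called higher and 243 lower at day 15 in resting Th1 cells. The shares over all genes were 7.34% higher and 8.72% lower. Of the 55 erythroid-listed genes only 26 did so (Alas2 had r = 0.79), so a lower r does not show that a gene is free of erythroid RNA. Pklr, the red cell pyruvate kinase, had r = 0.98 and read 10.36 and 9.79 at day 15, against 6.79, 6.60 and 6.64 at day 5. Cd24a, a surface protein of many immature blood cells, had r = 0.91 and read 10.77 and 10.34 at day 15, against 5.36, 5.75 and 5.57 at day 5, a rise of 4.99 that only Car1 exceeded among all genes; both genes were chosen after their values were seen. Leaving out all listed and tracking genes, 493 in all, left 1380 genes higher and 1495 lower. With the erythroid mean as a covariate, 90 genes were called higher and 745 lower. That covariate separates the days completely, being 7.78 or more on every fitted day 15 array and 7.46 or less on every day 5 array.

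**Figure D2:**
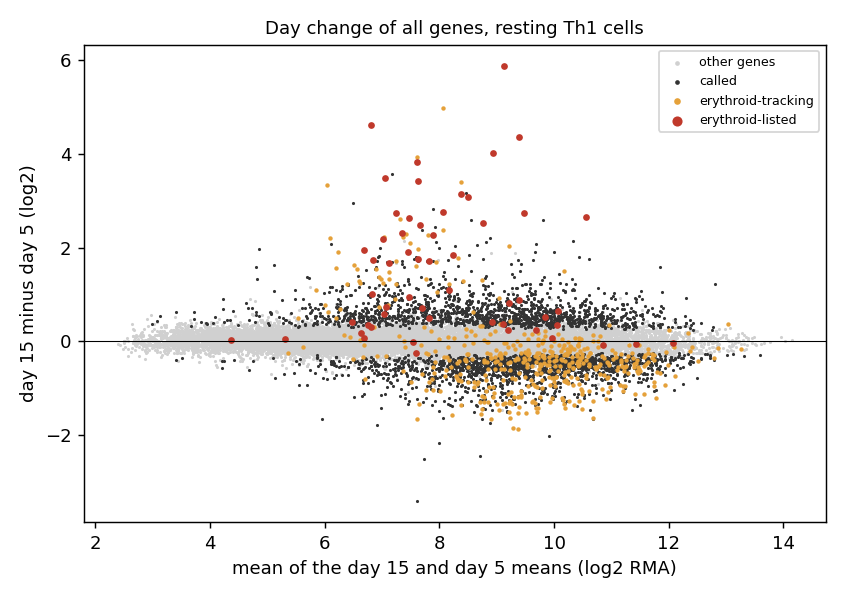
Change of each of the 19938 genes between the days (day 15 minus day 5, log2) against the mean of its 2 day means (log2 RMA) in resting Th1 cells. Red points are the 55 erythroid-listed genes, orange the genes that track the erythroid mean at r of 0.8 or more, black the other called genes and grey the rest. Red points reach 5.87, while most orange called genes lie below 0, with 243 lower and 70 higher.

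By list median, markers of other blood cells moved less than the 55 erythroid genes (1.02), and not as one group. The medians were 0.53 for platelet, 0.01 for B cell, -0.07 for myeloid and 0.25 for dendritic and MHC class II genes. Single genes could move as much as erythroid ones. Over all genes 7.34% were called higher and 8.72% lower, and the myeloid count below, 2 of 20 genes higher, is near that share. Of 7 platelet and megakaryocyte genes 5 were called higher, and 2 without day 15 replicate 2. Ppbp, a platelet chemokine, read 8.41 and 9.53 at day 15, against 5.36, 5.39 and 5.43 at day 5, a rise of 3.58 (adjusted p = 3.3e-09). Here replicate 2 was the higher day 15 array, the reverse of the erythroid genes, and the array before transfer read 11.98. Gp9, a platelet glycoprotein, rose by 0.95 (adjusted p = 9.51e-05), and Pf4 by 0.80 (adjusted p = 0.000577), which without replicate 2 of day 15 was 0.48 (adjusted p = 0.074). Of 10 B cell genes, 2 rose. Jchain, the joining chain of secreted antibody, read 9.24 and 10.11 at day 15, against 7.24, 7.86 and 7.77 at day 5 (change 2.05, adjusted p = 1.24e-05). Ighm rose by 1.43 (adjusted p = 0.0172), a call lost without day 15 replicate 2 (1.08, adjusted p = 0.26) or day 5 replicate 3 (1.24, adjusted p = 0.0806). The defining B cell marker Cd79a read 5.61 and 6.60 at day 15, against 5.22, 5.99 and 5.93 at day 5, and its groups overlap. Of 20 myeloid genes, 2 rose, the granule genes Mpo (1.70, adjusted p = 0.0053) and Elane (0.67, adjusted p = 0.00538), and both calls were lost without day 15 replicate 2, at 1.53 (adjusted p = 0.0869) and 0.62 (adjusted p = 0.0786). The macrophage receptor Csf1r read 6.42 and 6.31 at day 15, against 6.01, 6.24 and 6.38 at day 5, and did not pass the test. The part of these cells in the results below was not tested.

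Genes of cell division fell together, where 8.72% of all genes were called lower. Of 29 mitosis and spindle genes, 29 were called lower at day 15, with a median change of -1.20 and a range of -1.87 to -0.61. Of 28 DNA replication and repair genes, 27 were called lower, with a median of -1.07. Kif2c, a motor that takes microtubules apart at the kinetochore, read 8.78 and 8.08 at day 15, against 10.35, 10.20 and 10.36 at day 5, a change of -1.87 (SE 0.18, adjusted p = 1.23e-07). Aurkb, the kinase of the chromosomal passenger complex, read 10.90 and 10.37 at day 15, against 12.14, 12.03 and 12.12 at day 5, a change of -1.46 (SE 0.15, adjusted p = 1.7e-07). Cdc20, which activates the anaphase-promoting complex, read 9.90 and 9.61 at day 15, against 11.23, 11.12 and 11.25 at day 5, a change of -1.45 (SE 0.15, adjusted p = 4.56e-07). The day 15 arrays lay below all day 5 arrays for these 3 genes, as for 25.6% of all genes, and replicate 2 was the lower of them. Mki67, the proliferation marker of the dividing nucleus, read 11.98 and 11.57 at day 15, against 12.39, 12.33 and 12.43 at day 5. Its fall by 0.61 (adjusted p = 0.000568) was the least in the mitosis list, and without day 15 replicate 2 it was -0.40 (adjusted p = 0.0615).

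Replication genes fell at several steps. Rfc3, a subunit of the clamp loader, read 8.35 and 8.07 at day 15, against 9.56, 9.45 and 9.67 at day 5, a change of -1.36 (SE 0.17, adjusted p = 5.64e-06). Cdc45, part of the replicative helicase, read 8.71 and 8.51 at day 15, against 9.97, 9.89 and 9.89 at day 5, a change of -1.31 (SE 0.11, adjusted p = 8.01e-09). Mcm3, another helicase subunit, changed by -1.33 (adjusted p = 1.16e-07). Lig1, which seals Okazaki fragments, changed by -1.18 (adjusted p = 1.77e-08), and Uhrf1, which maintains DNA methylation at replication, by -1.21 (adjusted p = 5.81e-07). Outside the lists, the largest falls that did not overlap also held cell cycle genes. Eme1, a subunit of a repair endonuclease, and Prr11 both fell by 1.66, Pimreg and the mitotic kinase gene Mastl by 1.51, the phosphatase gene Cdc25c by 1.49 and the centriole gene Stil by 1.48.

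**Figure D3:**
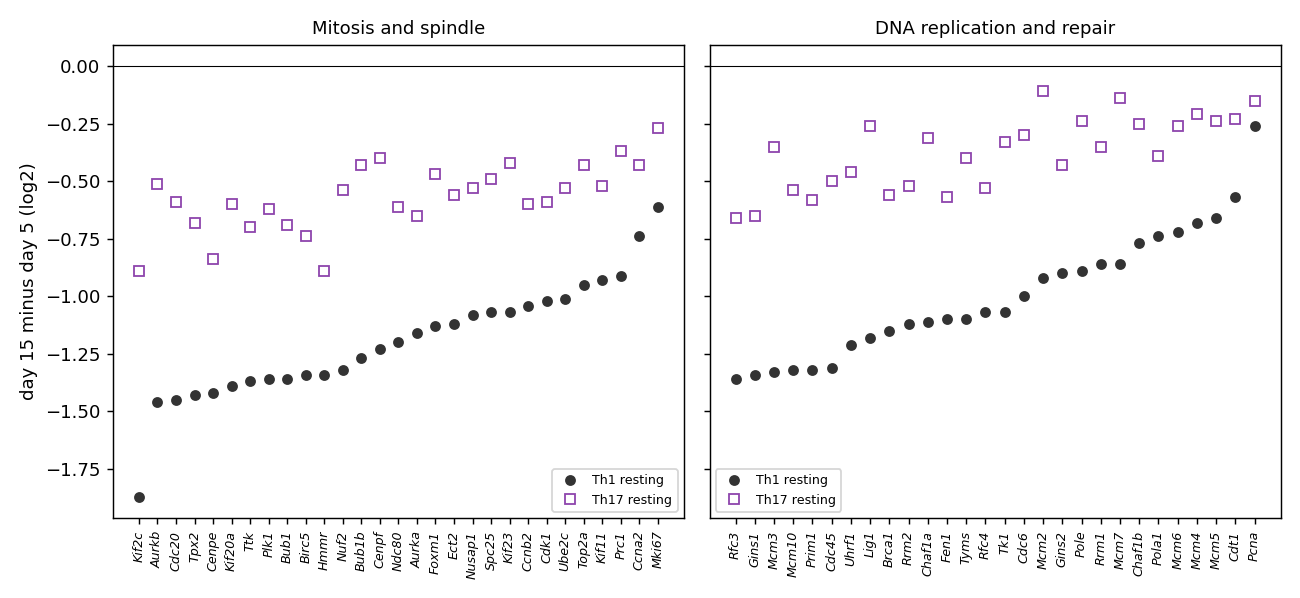
Day 15 minus day 5 (log2) for each measured mitosis and spindle gene (left) and DNA replication and repair gene (right), ordered by the change in resting Th1 cells (filled circles), with the change of the same gene in resting Th17 cells (open squares). All Th1 points lie below 0, from -1.87 to -0.26.

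The counts held when arrays were left out: 28 or 29 mitosis genes and 27 replication genes were lower in each case. With the erythroid mean as a covariate 29 and 26 were lower, and their medians were -2.44 and -1.98. Mitosis genes followed the erythroid mean among the day 15 arrays, with a median r of 0.82 and 18 of 29 genes at 0.8 or more, and all 11 of the others were also called lower. In resting Th17 cells, where 5.28% of all genes were called lower, 27 mitosis genes (median -0.56) and 14 replication genes (median -0.35) were lower at day 15. The difference between the types passed the test for 6 mitosis and 10 replication genes, where 1.14% of all genes passed. In each of these genes the difference, Th1 minus Th17, was negative. For Lig1 it was -0.92 (adjusted p = 0.000731), with a Th17 change of -0.26 (adjusted p = 0.0505). In restimulated Th1 cells, where 8.63% of all genes were called lower, 29 mitosis and 28 replication genes were lower.

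Promoters of 2 of these genes are shown because each had the largest change in its list among genes whose window holds the motif. In Kif2c (minus strand, chr4:117178723-117179022) capitals mark the cell cycle homology region word TTTGAA or TTCGAA on either strand, which begins at position -103. In Rfc3 (minus strand, chr5:151651159-151651458) capitals mark E2F words (TTTCGCGC, TTTGGCGC or TTTCCCGC, either strand), of which 2 are present, from positions -10 and 1.
Kif2c: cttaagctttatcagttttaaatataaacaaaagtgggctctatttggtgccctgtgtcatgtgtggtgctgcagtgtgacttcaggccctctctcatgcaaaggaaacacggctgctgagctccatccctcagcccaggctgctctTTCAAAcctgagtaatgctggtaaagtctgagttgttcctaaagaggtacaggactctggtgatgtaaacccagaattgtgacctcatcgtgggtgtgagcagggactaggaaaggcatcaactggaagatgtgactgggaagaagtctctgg
Rfc3: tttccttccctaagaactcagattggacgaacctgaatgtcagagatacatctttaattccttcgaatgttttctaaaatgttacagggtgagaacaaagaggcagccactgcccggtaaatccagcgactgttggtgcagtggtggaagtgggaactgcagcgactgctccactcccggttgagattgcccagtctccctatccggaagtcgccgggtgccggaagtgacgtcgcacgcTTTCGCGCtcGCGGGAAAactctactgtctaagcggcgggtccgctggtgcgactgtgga
Of 24 mitosis genes with a window, 20 (83.3%) held a cell cycle homology word, against 19.4% of all 27025 windows. Of 24 replication genes with a window, 8 (33.3%) held an E2F word, against 1.91% of all windows. The motifs were searched apart from each other and their matches may overlap.

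Killer and effector receptor genes rose, where 7.34% of all genes were called higher. Of 14 measured, 12 were called higher and 0 lower, with a median change of 1.60, and 12 were called higher whichever array was left out. Klrk1, which encodes the activating receptor NKG2D, read 10.01 and 9.69 at day 15, against 7.30, 7.06 and 7.44 at day 5, a rise of 2.58 or 5.98-fold (SE 0.17, adjusted p = 2.71e-10). Klrd1, which encodes CD94, read 10.68 and 10.78 at day 15, against 8.62, 8.49 and 8.84 at day 5, a rise of 2.08 (SE 0.19, adjusted p = 3.81e-08). Klrc1, which encodes the inhibitory partner NKG2A, read 9.99 and 9.98 at day 15, against 7.92, 7.27 and 8.17 at day 5, a rise of 2.20 (SE 0.25, adjusted p = 9.43e-07). For all 3 genes the lower of the day 15 arrays lay more than 1 log2 unit above the highest day 5 array. Klrc2, the activating NKG2C gene, rose by 2.00 (adjusted p = 3.86e-08) and Klrb1c, the NK1.1 antigen of C57BL/6 mice, by 1.55 (adjusted p = 2.07e-05). S1pr5, a sphingosine phosphate receptor of egress, read 11.43 and 11.37 at day 15, against 9.01, 9.51 and 9.27 at day 5, a rise of 2.14 (adjusted p = 0.00035). The fractalkine receptor gene Cx3cr1 read 11.44 and 11.54 at day 15, against 9.56, 9.73 and 9.92 at day 5, a rise of 1.76 (adjusted p = 1.5e-05). The inhibitory Fc receptor gene Fcgr2b rose by 1.64 (adjusted p = 2.16e-08), Klrg1, a receptor of late effector cells, by 0.83 (adjusted p = 0.00224) and the IL-18 receptor gene Il18r1 by 0.72 (adjusted p = 0.000358).

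Several of these genes neighbour each other on chromosome 6, in the NK gene complex. Of 33 measured genes of the complex, from Klrb1c to Klra8, 12 were called higher (median 0.26), where 7.34% of all genes were. Of its 17 Klr genes 11 were higher (median 0.89), and of its 16 other genes 1 was. From Klre1 to Klrc1, 6 of 6 neighbouring genes were higher (median 2.04). The ends of that stretch were not fixed beforehand, so its count is a description. Genes of this family resemble each other in sequence and probe sets may share signal. In resting Th17 cells 6 of the 14 receptor genes were higher and 1 lower (median 0.28), where 4.37% and 5.28% of all genes were. Of the 14, 7 differed between the types, all with the more positive change in Th1 cells, against 1.14% of all genes. Of the 6 neighbours 2 were higher in Th17 cells (median 0.50), and the difference passed the test for 5. It was 1.98 for Klrd1 (adjusted p = 0.000156), 1.98 for Klrb1c (adjusted p = 0.000853), 1.48 for Klrc2 (adjusted p = 0.00171) and 1.22 for Fcgr2b (adjusted p = 0.00131). In restimulated Th1 cells, where 7.07% of all genes were called higher, 12 receptor genes were higher (median 1.25). Most of these receptors are shared with natural killer cells, whose part in the result was not tested. Ncr1, which marks natural killer cells, read 6.61 and 7.24 at day 15, against 6.01, 6.59 and 6.78 at day 5, and its groups overlap (change 0.46, adjusted p = 0.255). Klra8, a Ly49 receptor gene, read 5.60 and 5.79 at day 15, against 4.81, 4.82 and 4.80 at day 5 (change 0.89, adjusted p = 0.000621). Cd8a read 6.39 and 6.56 at day 15, against 7.07, 6.70 and 6.88 at day 5 (change -0.41, adjusted p = 0.0527; without day 5 replicate 2 -0.50, adjusted p = 0.0303). Of 10 natural killer and CD8 T cell genes in the list 6 were higher and 1, Cd8b1, lower, which was lost without either day 15 array or day 5 replicate 1; 5 of the 6 are receptor genes named above, and the sixth is Klra8. With the erythroid mean as a covariate only 1 of the 12 receptor genes, Klrk1, was called.

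**Figure D4:**
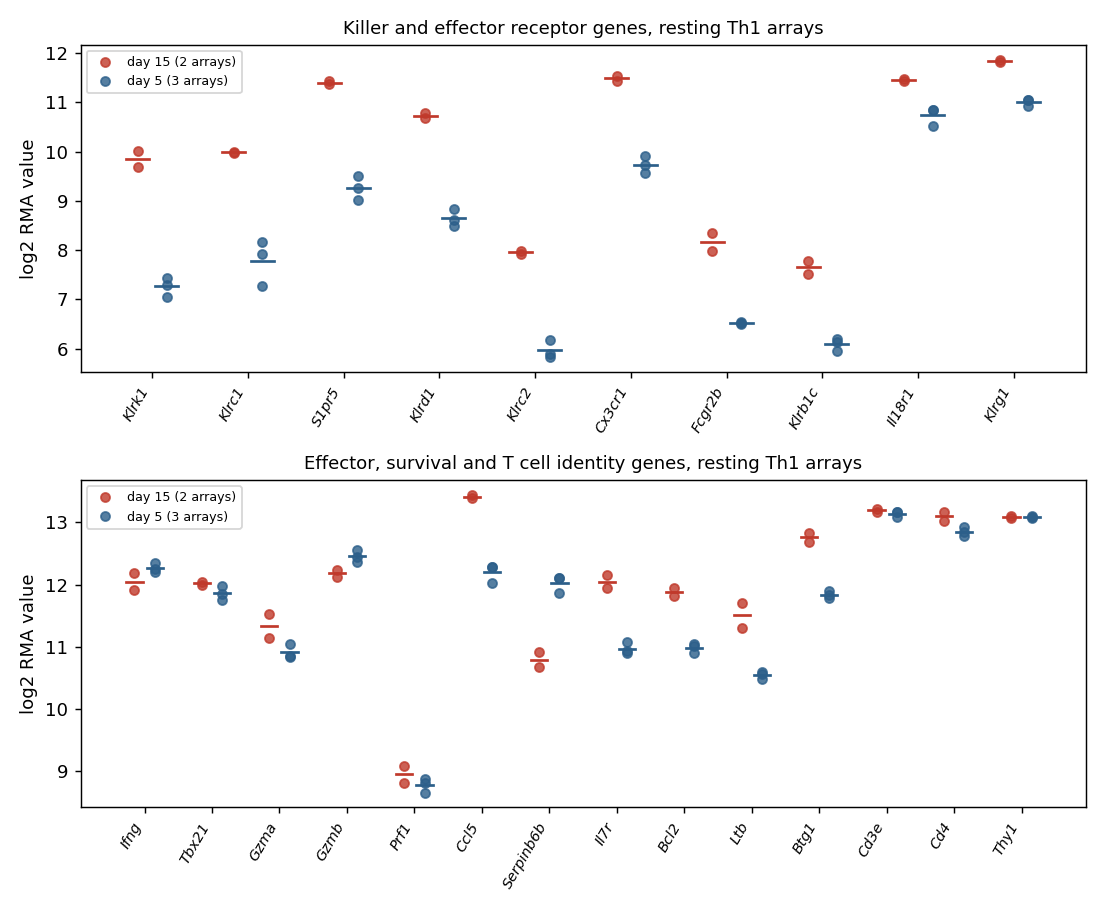
Log2 RMA values on each resting Th1 array at day 15 (red, 2 arrays) and day 5 (blue, 3 arrays), with the mean of each day as a bar, for 10 killer and effector receptor genes (top) and 14 effector, survival and T cell identity genes (bottom). The receptor genes are separated at every point, with day 15 above, as are 24.3% of all genes. The day means of Ifng, Tbx21, Prf1, Cd3e and Thy1 lie close to each other.

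The defining genes of the Th1 type and of cytotoxic granules did not follow the receptors. Of 13 Th1 program genes 1, Il18r1, was called higher and 0 lower, with a median of -0.04. Over all genes 7.34% were called higher and 8.72% lower, so the higher count is near that share. Ifng, the Th1 cytokine, read 12.18 and 11.91 at day 15, against 12.25, 12.20 and 12.35 at day 5 (change -0.22, SE 0.34, adjusted p = 0.781). Tbx21, which encodes T-bet, read 12.04 and 12 at day 15, against 11.76, 11.85 and 11.98 at day 5 (change 0.16, SE 0.20, adjusted p = 0.723). A p above the threshold does not show equal levels, and for Ifng the SE allows a change in either direction. Of 18 granule genes, 1 was higher and 4 lower. Gzma read 11.53 and 11.15 at day 15, against 10.83, 10.86 and 11.05 at day 5 (change 0.43, adjusted p = 0.148), and Gzmb read 12.13 and 12.24 at day 15, against 12.37, 12.44 and 12.56 at day 5 (change -0.28, adjusted p = 0.488). Perforin, encoded by Prf1, read 8.82 and 9.09 at day 15, against 8.82, 8.66 and 8.88 at day 5 (change 0.17, adjusted p = 0.724). Ccl5, a chemokine stored and secreted by effector T cells, was the member that rose, reading 13.39 and 13.44 at day 15, against 12.03, 12.28 and 12.29 at day 5 (change 1.22, adjusted p = 5.47e-07). Serpinb6b, a protease inhibitor, changed by -1.23 (adjusted p = 0.000265). Gzmk fell by 0.62 (adjusted p = 0.013), a call lost without day 15 replicate 1 (-0.47, adjusted p = 0.194) or day 5 replicate 1 (-0.55, adjusted p = 0.0605). The lower count of 4 was 1 without day 15 replicate 1 and 2 without day 15 replicate 2 or day 5 replicate 1. In Th17 cells Gzmb changed by -1.74 and Gzma by -0.80, and the difference between the types was 1.46 for Gzmb (adjusted p = 0.0104) and 1.22 for Gzma (adjusted p = 0.0137). These calls were lost for Gzmb without Th1 day 15 replicate 2 (1.41, adjusted p = 0.102) and for Gzma without Th1 day 15 replicate 1 (1.03, adjusted p = 0.0939).

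Single genes of survival and quiescence rose, in lists of which few members were called, where 7.34% of all genes were called higher and 8.72% lower. Il7r, which encodes the IL-7 receptor alpha chain that keeps resting T cells alive, read 11.95 and 12.15 at day 15, against 11.08, 10.93 and 10.91 at day 5 (change 1.08, SE 0.19, adjusted p = 0.000206). Bcl2, the inhibitor of cell death, read 11.82 and 11.95 at day 15, against 10.90, 11.01 and 11.04 at day 5 (change 0.90, SE 0.14, adjusted p = 6.09e-05). Of 18 genes of the Bcl2 family 2 were higher and 1 lower, but 1 was higher whichever resting Th1 array was left out, and 0 lower without day 15 replicate 1. Of 11 cytokine receptor genes 3 were higher, or 1 without day 15 replicate 2. Btg1 and Btg2, which restrain proliferation, rose by 0.92 (adjusted p = 2.46e-06) and 0.75 (adjusted p = 0.000332), in a memory and quiescence list with 4 of 18 genes higher and 1 lower (2 and 1 without day 15 replicate 2, and 0 lower without day 15 replicate 1 or day 5 replicate 1 or 3). In other lists, Ltb, the lymphotoxin beta gene of the costimulation list, rose by 0.97 (adjusted p = 1.39e-05). Zeb2 rose by 1.23 (adjusted p = 0.000855), in a list of effector transcription factors with 1 of 15 genes higher and 1 lower. Il2rb, the receptor chain shared by IL-2 and IL-15, read 12.82 and 12.88 at day 15, against 12.74, 12.84 and 12.87 at day 5 (change 0.04, adjusted p = 0.877). Of 20 homing genes, 7 were higher and 0 lower, with 2 higher without day 15 replicate 2 and 4 without day 15 replicate 1. Gcnt1, which builds selectin ligands, rose by 1.52 (adjusted p = 1.55e-05) and the chemokine receptor gene Ccr2 by 0.93 (adjusted p = 2.58e-05). Ccr7, which guides cells to lymph nodes, read 9.57 and 9.80 at day 15, against 8.83, 9.44 and 8.99 at day 5 (change 0.59, adjusted p = 0.0933; without day 5 replicate 2 0.77, adjusted p = 0.0382). Tcf7 was not analysed here.

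Inhibitory receptors showed no common direction, with 2 of 16 genes higher and 4 lower (1 lower without day 15 replicate 1, 1 higher and 2 lower without day 15 replicate 2, and 2 lower without day 5 replicate 3). Over all genes 7.34% were called higher and 8.72% lower. Cd200 fell, reading 7.71 and 7.72 at day 15, against 9.13, 8.95 and 9.16 at day 5 (change -1.37, adjusted p = 0.00131). Pdcd1, which encodes PD-1, read 10.44 and 10.68 at day 15, against 10.68, 10.60 and 10.84 at day 5 (change -0.15, adjusted p = 0.803), and Entpd1, which encodes CD39, changed by 0.10 (adjusted p = 0.753). Il2 and Il17a, with changes of 0.57 (adjusted p = 0.667) and -0.09 (adjusted p = 0.922), did not pass the test. Of 20 genes of other helper types, 3 rose. Rora, a nuclear receptor of Th17 and innate lymphoid cells, read 10.50 and 10.58 at day 15, against 9.34, 9.16 and 9.41 at day 5 (change 1.24, adjusted p = 1.03e-07), with a difference from the Th17 change of 1.18 (adjusted p = 0.000303). Il23r, part of the IL-23 receptor, read 7.03 and 6.31 at day 15, against 6.0, 5.84 and 5.79 at day 5 (change 0.79, adjusted p = 0.00418), and without day 15 replicate 1 it was 0.43 (adjusted p = 0.226). Foxp3, the factor of regulatory T cells, read 9.92 and 11.17 at day 15, against 9.60, 9.61 and 9.77 at day 5, so that 1 array carried its change of 0.89 (adjusted p = 0.0486; 0.26 without day 15 replicate 2, adjusted p = 0.784). That call was also lost without day 5 replicate 1 (0.86, adjusted p = 0.117), replicate 2 (0.86, adjusted p = 0.104) or replicate 3 (0.94, adjusted p = 0.0764).

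Many metabolic genes were lower, where 8.72% of all genes were called lower. Of 24 respiratory chain genes, 17 were called lower and 0 higher (median -0.42), and 8 without either day 15 array. Ndufa4 read 9.16 and 9.15 at day 15, against 9.82, 9.84 and 10.13 at day 5 (change -0.78, adjusted p = 6.07e-05), while the succinate dehydrogenase gene Sdhb fell by 0.58 (adjusted p = 0.000149) and the cytochrome oxidase gene Cox5b by 0.53 (adjusted p = 0.000337). Of 15 glycolysis genes, 8 were lower and 0 higher (median -0.28), and 5 without day 15 replicate 1. Hk2, the inducible hexokinase, read 7.45 and 7.48 at day 15, against 8.52, 8.52 and 8.41 at day 5 (change -1.02, adjusted p = 0.00111). The glycolytic enzyme genes Tpi1 and Pgk1 fell by 0.90 (adjusted p = 0.000137) and 0.80 (adjusted p = 2.39e-06), and the lactate exporter Slc16a3 by 0.60 (adjusted p = 0.000682). Of 19 cholesterol and fatty acid genes, 8 were lower, with 4 and 2 lower without day 15 replicate 1 and 2, and Scd2, a fatty acid desaturase, fell by 0.75 (adjusted p = 0.000797). Of 20 ribosome biogenesis genes, 9 were lower (median -0.35), with 3 and 1 lower without day 15 replicate 1 and 2, and 5 without day 5 replicate 1 and 6 without day 5 replicate 3. Pdia6, a folding enzyme of the endoplasmic reticulum, fell by 1.13 (adjusted p = 3.76e-05). Its heat shock and unfolded protein list had 4 of 16 genes lower and 0 higher, with changes from -1.13 to 1.89. With the erythroid mean as a covariate the lower counts were 9 respiratory, 2 glycolysis, 6 lipid and 1 ribosome biogenesis genes. In Th17 cells, where 5.28% of all genes were called lower, 7 respiratory, 4 glycolysis, 0 lipid and 0 ribosome biogenesis genes were lower. There 3 ribosome biogenesis, 1 glycolysis, 1 lipid and 0 respiratory genes were higher, where 4.37% of all genes were.

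Interferon-stimulated genes were higher in 8 of 22 cases and lower in 0 (median 0.21), but in 2 without day 15 replicate 1, 1 without day 15 replicate 2, and 4, 5 and 4 without day 5 replicates 1, 2 and 3. Rsad2, the antiviral gene viperin, read 8.62 and 8.44 at day 15, against 7.39, 7.53 and 7.35 at day 5 (change 1.10, adjusted p = 0.00498; 1.01 without day 15 replicate 1, adjusted p = 0.0647). Over all genes 7.34% were called higher and 8.72% lower. Of 17 interferon-stimulated genes with a promoter window 10 (58.8%) held an interferon-stimulated response element (the ISRE motif, either strand). Among all windows 3.49% did. With the erythroid mean as a covariate 0 interferon, 0 homing and 0 cytokine receptor genes were called.

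**Figure D5:**
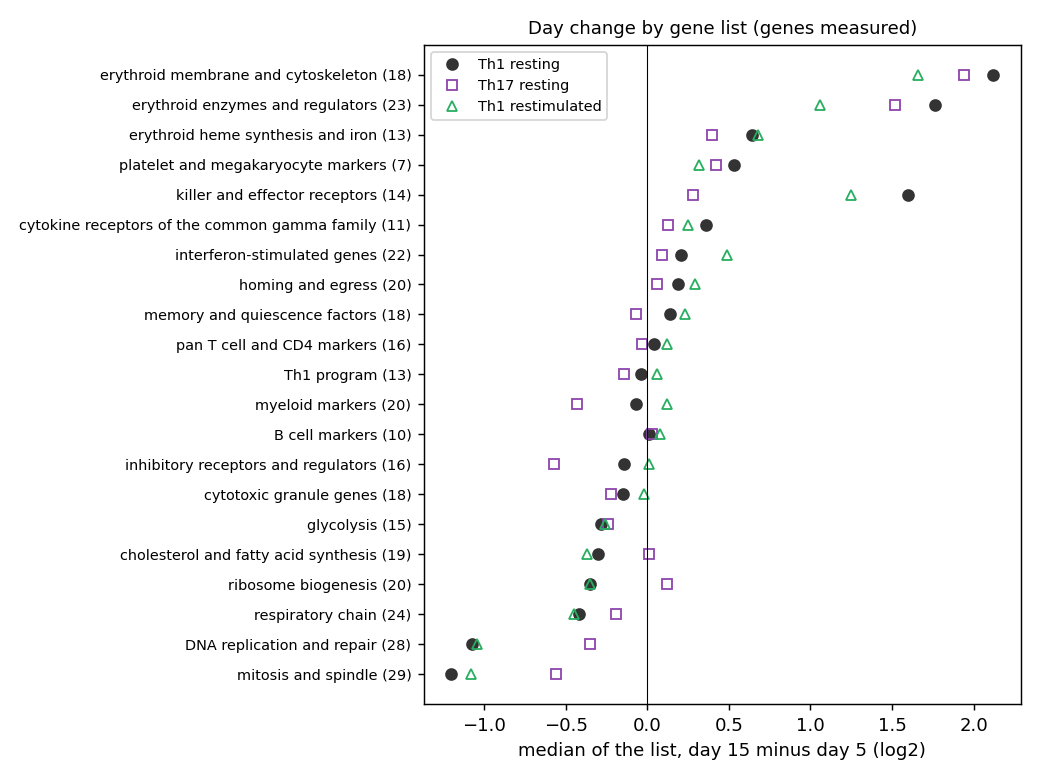
Median change of 21 gene lists between the days (day 15 minus day 5, log2) in resting Th1 (filled circles), resting Th17 (squares) and restimulated Th1 cells (triangles), with the number of measured genes in brackets. Erythroid lists and the receptor list lie right of 0 (2.12 for membrane genes and 1.60 for receptors in resting Th1 cells) and the division lists lie left of it (-1.07 and -1.20).

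Outside the lists, the genes with the largest rises that were neither erythroid-listed nor tracking at r of 0.8 or more were read next. Erythroid signal in them was not tested. Only 26 of the 55 erythroid-listed genes reached that r, so erythroid genes may remain among them. Tlcd4 rose by 3.34 and Atp1b2, a sodium pump subunit, by 3.17. With the erythroid mean as a covariate, which separates the days completely, Tlcd4 turned its sign without being called. Adgrg1, an adhesion receptor of cytotoxic lymphocytes, read 9.19 and 9.12 at day 15, against 6.67, 6.74 and 6.71 at day 5 (change 2.45, adjusted p = 8.03e-11). Its r with the erythroid mean was 0.66, and it changed by 2.18 in Th17 cells. Mmp9, a gelatinase, read 11.14 and 11.07 at day 15, against 8.39, 8.51 and 8.68 at day 5 (change 2.58, adjusted p = 7.84e-09). Olfr60, named as an olfactory receptor, read 7.85 and 8.08 at day 15, against 4.87, 4.91 and 5.28 at day 5 (change 2.95, adjusted p = 2.58e-09). Tnfaip2 rose by 2.37, the histamine receptor gene Hrh4 and the sphingosine phosphate transporter gene Mfsd2b by 2.11, and Qser1 by 2.08. Among the genes that fell, Klk1b11, a tissue kallikrein, read 5.77 and 6.05 at day 15, against 8.95, 9.57 and 9.41 at day 5 (change -3.40, adjusted p = 1.19e-09). Klk1b8 changed by -1.66, and 4 of 10 measured Klk1b genes on chromosome 7 were lower, where 8.72% of all genes were. These near copies may share signal, so which of them changed is uncertain. The serpin gene Serpinb9b read 6.59 and 6.38 at day 15, against 9.07, 8.84 and 9.06 at day 5 (change -2.51, adjusted p = 1.66e-09). Bcat1, a branched-chain amino acid transaminase, changed by -2.44, Dnase1l3 by -2.17, Zbtb32, a repressor of lymphocyte activation genes, by -2.03, Akr1c18 by -1.78, the heme oxygenase gene Hmox1 by -1.75 and the RNA binding protein gene Igf2bp3 by -1.63.

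Xist, the RNA that silences 1 X chromosome in female cells, was among the genes that rose. It read 9.35 and 9.25 at day 15, against 5.98, 6.76 and 6.67 at day 5 (change 2.83, SE 0.25, adjusted p = 3.98e-08), and 4.88 on the array taken before transfer. Another 3 genes, all on the Y chromosome, were looked up after Xist was seen. Eif2s3y read 9.69 and 9.86 at day 15, against 9.41, 9.40 and 9.62 at day 5 (change 0.30, adjusted p = 0.168). Uty rose by 0.54 (adjusted p = 0.00198), and Kdm5d by 0.41 (adjusted p = 0.0139), a call lost without day 15 replicate 2 (0.34, adjusted p = 0.181) or day 5 replicate 1 (0.39, adjusted p = 0.0531). Xist had r = 0.53 with the erythroid mean over the 12 day 15 arrays. The sexes of donors and recipients are not given in the labels.

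Whether day changes differed between resting Th1 and Th17 cells was tested gene by gene. In all 227 genes (1.14%) passed, with the Th1 change the more positive for 112 (0.562%) and the more negative for 115 (0.577%), but 34 without Th1 day 15 replicate 2, 99 and 136 without Th1 day 5 replicate 1 and 3, 151 and 357 without Th17 day 15 replicate 2 and 3, and 122 without Th17 day 5 replicate 3. By size Hspa1a, a heat shock gene, led with 3.83 (adjusted p = 0.0272), a call lost without any 1 of 6 arrays (adjusted p of 0.0547 to 0.147). Ifitm1, an interferon-induced membrane gene, read 11.22 and 11.45 in Th1 cells at day 15, against 9.93, 9.25 and 9.44 at day 5, a rise of 1.79, with a difference of 2.29 (adjusted p = 0.00126). Olfr60 differed by 2.23 and Il23r by 2.06, the second having changed by -1.27 in Th17 cells. Klk1b11 differed by -3.70 (adjusted p = 1.06e-06), with a Th17 change of 0.30. Dapl1 rose by 1.29 in Th1 cells and by 3.72 in Th17 cells, a difference of -2.43 (adjusted p = 0.000574).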

How the data were processed

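RNA of TRP1-specific CD4+ T cells was measured on 28 Affymetrix mouse arrays, from 150 ng of total RNA each. The deposited values are log2 RMA values, which the authors made with Affymetrix Expression Console per the submitters' processing notes (versions are not stated, nor which arrays were normalized together). RMA subtracts background, makes array distributions equal and summarises each probe set, so a large rise in some transcripts can shift others. No detection calls were used, and levels are not compared between genes.

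Of 35556 probe sets, 21789 had 1 gene symbol in the platform annotation, 1621 several and 12146 none. The probe set with the highest mean was kept for each of 19938 genes, of which 999 had more than 1. Limma 3.58.1 (lmFit and eBayes, R 4.3.3) was fitted with 1 coefficient per group to the 24 arrays taken after transfer (8 groups, 16 residual degrees of freedom), which share an estimate of spread. Adjusted p is Benjamini-Hochberg over all genes. The difference between types is the Th1 day change minus the Th17 day change at rest.

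The genes compared and the 33 gene lists (540 of 592 entries measured) were chosen with earlier results of these data known. Named genes are up to 15 each way with the largest change among called, non-overlapping genes that are not erythroid-listed, tracking or clone names; up to 8 called members of each list; a panel of T cell genes whatever their change; and up to 8 each way for the difference between types. Of these mainly the genes whose call held when 1 array was left out are described, which was decided with the values in view. Erythroid tracking is the Pearson r of within-group deviations, at 0.8 or more. Promoter windows and sequences are from RefSeq (GRCm38.p6), the first window listed for each gene.

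In simulated data, 200 of 19938 genes were changed in the resting Th1 day 15 arrays. Of genes changed by 1 log2 unit 96% were recovered, and of those changed by 2 99%, and 10 unchanged genes were called. The simulated noise was normal and independent between genes and arrays. These rates therefore need not hold for the real arrays, which share erythroid RNA and parts of divided samples. Alternatives were other sample sets, a filter on dim genes, cyclic loess, centring on array medians or pan T cell genes, the erythroid mean as a covariate, the mean of all probe sets, array weights, a trended and robust prior, blocks for replicate number or sample part, and leaving out each array. Where that left 1 array in a group, it was assumed to vary like the others. Leaving listed and tracking erythroid genes out of the count was added after seeing the data. The 4 arrays taken before transfer, 1 per group, were not fitted and give values only.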

Additional observations from a re-analysis of the deposited data

Results flagged for a closer look

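For 25 of the genes named, the day change of resting Th1 cells differed from that of resting Th17 cells by the test of the difference itself in limma, and 18 of these calls held whichever resting array was left out. Some of these genes were named because this difference was called, and mainly genes whose calls held are described. The counts of 25 and 18 follow in part from that choice and are not rates over all genes. All values below are Th1 day change minus Th17 day change, in log2 units. The Th1 change was the more positive for Olfr60 (2.23), Ifitm1 (2.29), Cd24a (2.25), Il23r (2.06), Klrd1 (1.98), Klrb1c (1.98), Mmp9 (1.67), Klrc2 (1.48), Fcgr2b (1.22) and Rora (1.18). It was the more negative for the kallikrein genes Klk1b11 (-3.70), Klk1b8 (-1.61) and Klk1b9 (-1.40), and for Akr1c18 (-2.04), Dapl1 (-2.43), Lig1 (-0.92) and the neutrophil granule genes Prtn3 (-1.49) and Elane (-1.23).

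The other 7 calls were lost when 1 array, or any 1 of several, was left out, which also lowers the precision. Hspa1a differed by 3.83, with the call lost without either Th1 day 15 array, Th1 day 5 replicate 2 or 3, Th17 day 15 replicate 2 or Th17 day 5 replicate 3 (3.28 to 4.37, adjusted p of 0.0547 to 0.147). Foxp3 differed by 1.82, and without Th1 day 15 replicate 2 by 1.19 (adjusted p = 0.331), with the call also lost without Th1 day 5 replicate 1 or Th17 day 5 replicate 1 or 3 (1.59 to 1.79). Heatr9 differed by 1.90 and without Th1 day 15 replicate 1 by 1.51 (adjusted p = 0.104). Gzmb differed by 1.46 and without Th1 day 15 replicate 2 by 1.41 (adjusted p = 0.102), and Gzma by 1.22 and without Th1 day 15 replicate 1 by 1.03 (adjusted p = 0.0939). Ctsg, a neutrophil granule gene, differed by -1.57, and without Th1 day 15 replicate 1 or 2 by -1.38 (adjusted p = 0.0885) or -1.75 (adjusted p = 0.0587). Qpct differed by -1.29, and without those arrays by -1.23 (adjusted p = 0.0782) or -1.35 (adjusted p = 0.102).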

How the results depend on the processing

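Against 3201 genes called (1463 higher and 1738 lower), array weights gave 4972 (2381 and 2591), only the 5 resting Th1 arrays 5059 (2410 and 2649), and the erythroid covariate 835 (90 and 745). Centring on array medians gave 953 higher and 3149 lower, and centring on pan T cell genes 2866 lower. Leaving out 1 resting Th1 array gave 1656 to 2753 genes (717 to 1240 higher, 939 to 1581 lower), the lowest without day 15 replicate 2. With the replicate block 2398 genes were called. Cyclic loess, the dim filter, other probe set and prior choices, and the sample part block stayed within 1.5 times the count.

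For the difference between types, 227 genes became 1317 with array weights, 348 with array medians, 569 with pan T cell centring, 426 with cyclic loess, 558 with the erythroid covariate, 341 with genes above the median, 373 with only the 12 resting arrays and 201 with the replicate block, and 34 to 357 when 1 array was left out. Under the erythroid covariate, which separates the days completely, Ctsg (-0.25), Gzmk (0.08), Klk1b9 (0.06) and Tlcd4 (-0.44) turned their sign without being called; the cause was not tested. Most other genes called higher lost their call there. Replicate numbers are shared by 2 pairs of resting Th1 arrays, whose deviations correlated at 0.28 and 0.21 over 9969 genes. Pairs of unlike number gave -0.28 to 0.13. The deviations of the 2 day 15 arrays mirror each other, so these values are not independent, and the labels do not say that a number marks a pair. With the replicate block Foxp3 (0.94, adjusted p = 0.0601) and Ighm (1.24, adjusted p = 0.0925) lost theirs and no other named gene did.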

Other observations

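The array of Th1 cells in culture on the day of transfer, which has no replicate, gives levels for some genes of the comparison. S1pr5 read 6.48 there, below all 5 later arrays, and Klrg1 read 8.08, against 10.93 to 11.87 on the later arrays. Hk2 read 10.30, above all later arrays, whose highest value was 8.52. Il7r read 12.71 there, Ccr7 read 11.57 and Ltb read 12.12, each above both days after transfer. The neutrophil granule gene Ctsg read 11.41 before transfer, 6.75 and 7.12 at day 15, and 5.86, 6.07 and 5.89 at day 5. Kif2c read 10.34 in culture, a level within the day 5 range.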
